A study of Homo sapiens with 12 samples.

Results

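The mRNAs of the translation initiation and elongation factors were followed through a block of transcription in HEK293T cells, with and without an inhibitor of mRNA decapping. HEK293T is an epithelial cell line of human embryonic kidney origin that expresses SV40 large T antigen. Members were the genes whose symbol begins with EIF1 to EIF6 or with EEF1 or EEF2, leaving out EIF1AY, EIF4A3, EIF4ENIF1, the eIF2 kinases and the EIF2C genes, and whose mean over the 12 libraries was at least 1 FPKM (a fragment count normalised for transcript length and library size). Of 23615 gene symbols, 60 matched by name and 53 of these reached the level, among 12183 genes that did. The 4 groups held 3 libraries each. They were CP25 2 h (2 μM of the macrocycle CP25, which inhibits the decapping enzyme Dcp2, for 18 h and then 2 h of actinomycin D at 5 μg/mL), vehicle 2 h (peptide storage buffer for 18 h and the same 2 h of actinomycin D), CP25 0 h and vehicle 0 h, where RNA was taken when actinomycin D was added. All groups share the cell line, the 18 h of pretreatment and the poly(A) library type. Replicates carry a number in the labels, with no word on whether each was a culture of its own, so the tests below measure library-to-library spread that could be technical.

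Translation begins when eIF2, loaded with GTP and the initiator tRNA, joins the small ribosomal subunit together with eIF1, eIF1A, eIF5 and the large scaffold eIF3. The cap complex of eIF4E, eIF4G and eIF4A, helped by eIF4B and eIF4H, brings this subunit to the capped end of the mRNA, from where it scans to the start codon. During elongation eEF1A delivers aminoacyl-tRNA, the eEF1B subunits recharge eEF1A with GTP, and eEF2 moves the ribosome along by 1 codon at a time. Many of these mRNAs belong to the TOP class, which starts with a C followed by a run of pyrimidines at the capped end and is held under translational control by mTORC1. Decapping by Dcp2 removes the cap and exposes an mRNA to degradation from that end.

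Not every member is a factor in the strict sense. EIF4EBP1 and EIF4EBP2 encode 4E-BPs, which inhibit eIF4E, EEF2K encodes a kinase that inhibits eEF2, and EEF1E1 encodes a subunit of the multisynthetase complex. EIF1AD encodes a protein with an eIF1A-like domain and is no canonical initiation factor. EEF1E1-MUTED is a read-through locus. The members closest to the level threshold were EIF5AL1, a copy of EIF5A, at 1.88 FPKM and EEF1E1-MUTED at 2.55 FPKM over the 12 libraries, and the closest outside were EIF3C at 0.92 and EEF1DP3 at 0.49 FPKM. EIF3C, a core eIF3 subunit, has a near-identical copy, EIF3CL, listed at 0.0633 FPKM. Reads shared between such copies can be lost or split, so their low values, and those of EIF5AL1, are uncertain. The others left out were EIF1B-AS1, EIF4E1B, EIF4EBP3 and EIF3IP1.

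The members ranged from abundant to weakly expressed mRNAs. Of the 53, 26 had a mean of at least 100 FPKM, 22 lay between 10 and 100 FPKM and 5 were below 10 FPKM. The shares of all genes at these levels are not given here. EEF1A1 led with 2767 FPKM over the 12 libraries, ahead of EEF1G (1363 FPKM), EIF4A1 (1183 FPKM), EEF2 (999 FPKM) and EIF5A (882 FPKM). Summed over the members, the libraries held 15113 to 15416 FPKM in CP25 2 h, 14883 to 15339 FPKM in vehicle 2 h, 10993 to 13439.8 FPKM in CP25 0 h and 10765 to 13220.1 FPKM in vehicle 0 h. The sums at 2 h lay above all those at 0 h. As a share of each library's total FPKM the times overlapped in CP25, through replicate 3 at 2 h. It held 2.57%, where the other CP25 2 h libraries held 3.0% and 3.01% and the CP25 0 h libraries 2.44% to 2.67%. The shares were 2.93% to 3.02% in vehicle 2 h and 2.43% to 2.64% in vehicle 0 h. The libraries numbered 1 were the lowest of their group at 0 h in both treatments.

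Depth, estimated from the smallest FPKM steps of genes of known length, was about 22 to 29 × 10⁶ fragments in the libraries of 2 h, against 13 to 22 × 10⁶ in those of 0 h. Pairs of libraries of 1 group correlated in their log2 values across genes at 0.971 to 0.989. All 6 markers chosen for HEK293T reached a mean of 1 FPKM, and of 15 markers of blood, endothelium, fibroblasts, hepatocytes and keratinised epithelium 1 did, COL1A1, while HBB and KRT5 were listed at 0 in every library. The summed level of these 15 was 3.83 to 4.99 FPKM in CP25 2 h, 3.91 to 5.25 in vehicle 2 h, 4.65 to 5.55 in CP25 0 h and 4.56 to 6.48 in vehicle 0 h. In bulk RNA of this kind, fewer cells and less RNA per cell cannot be told apart.

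The first question is how the factor mRNAs fared while transcription was blocked. After 2 h most translation factor mRNAs stood close to or above their 0 h level, and above the typical mRNA. Their median log2 ratio of 2 h to 0 h, on the scale of FPKM + 1, was 0.18 in CP25 and 0.22 in vehicle, against -0.16 and -0.18 for all tested genes. Over 10845 tested genes this ratio correlated with the level (Pearson 0.40), and the members were not compared with genes of like level. In CP25, 23 of 53 members stood more than 1.2-fold higher at 2 h, where 10.8% of all genes did, and 1 stood more than 1.2-fold lower, where 41.0% did. In vehicle the counts were again 23 higher and 1 lower, beside 10.6% and 42.3% of all genes, and 22 members were higher in both treatments, where 7.96% of all genes were. The single member lower in both was EIF1AD, where 37.4% of all genes were. The higher counts include the read-through locus EEF1E1-MUTED, whose means at 0 h were 0.401 FPKM in CP25 and 0.775 FPKM in vehicle and which reached the level threshold through its values at 2 h. Without it they are 22 in each treatment and 21 in both, of 52 members, with medians of 0.18 and 0.22.

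These values come from tables deposited separately for each time, so the ratios are given as description, with no test. An FPKM value expresses a share of its library, and a level above 100% of 0 h says that the share grew, not that the amount of mRNA did. When each library was centred on its median, the all-gene median moved up by 0.33 in CP25 and 0.34 in vehicle, and ratios are therefore best read against all genes. The number more than 1.2-fold higher was then 46 in CP25, where 40.9% of all genes were, and 43 in vehicle, where 40.5% were. Without EEF1E1-MUTED the numbers were 45 and 42. With a limit of 1.5-fold and no centring, 1 member was higher in CP25 and 2 in vehicle, where 0.772% of all genes were in each treatment, and EEF1E1-MUTED is 1 of these in both. The members' median lay 0.34 above the all-gene median in CP25 and 0.40 above it in vehicle. The all-gene median was exceeded by 49 of 53 members in CP25 and by 50 in vehicle. Without EEF1E1-MUTED these were 48 and 49 of 52. Centring shifts the ratios of all genes in a treatment by the same amount, so it cannot change positions against the all-gene median. Below the all-gene median in both treatments were EIF1AD, EIF1B and EIF5, and in CP25 also EIF2B4. Without the libraries numbered 1 at 0 h the members' medians were 0.10 and 0.13, and no all-gene median is given for that setting.

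Counted by libraries instead of by size, 25 members in CP25 had all 3 libraries at 2 h above all 3 at 0 h, where 15.5% of all genes did, and 30 in vehicle, where 15.0% did. All 25 were among the 30, and without EEF1E1-MUTED the counts are 24 and 29. The reverse held for 3 members in each treatment, EIF1AD, EIF1B and EIF2B4, beside 44.0% of all genes in CP25 and 46.0% in vehicle.

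**Figure D1:**
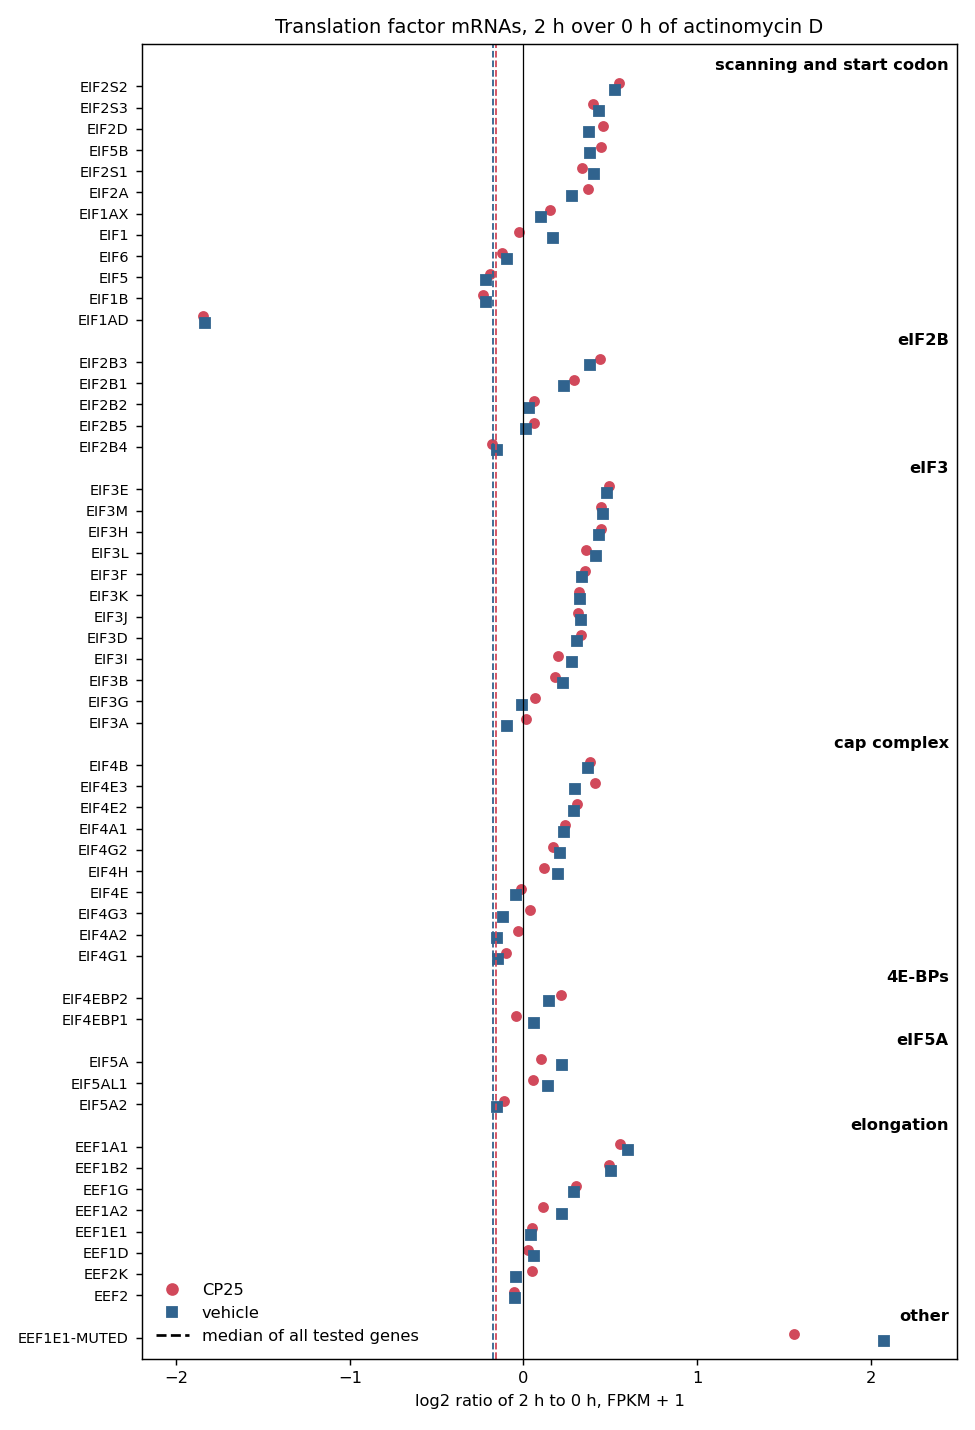
Log2 ratio of 2 h to 0 h (horizontal axis, FPKM + 1) for the 53 members, grouped by role, with CP25 as circles and vehicle as squares, each the difference of the means of 3 libraries. Dashed lines mark the all-gene medians of -0.16 in CP25 and -0.18 in vehicle, and EIF1AD stands alone at -1.84 and -1.83.

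EIF1AD was the exception, and it lay far below every other member. Its libraries held 4.04, 3.92 and 4.65 FPKM in CP25 2 h and 4.45, 3.76 and 4.65 FPKM in vehicle 2 h. At 0 h they held 17.7, 17.1 and 18.1 FPKM in CP25 and 17.7, 17.7 and 17.9 FPKM in vehicle. The groups of the 2 times were far apart, and the treatments overlapped at each time. EIF1AD was thus at 23.8% of its 0 h level in CP25 and at 24.1% in vehicle, and its log2 ratios of -1.84 and -1.83 stood at percentile 0.878 and 1.0 of all tested genes. They were -1.52 and -1.49 with centred libraries and -2.05 and -2.03 with 0.1 in place of 1 added to FPKM. At the estimated depth these levels correspond to about 300 to 360 fragments per library at 2 h and 680 to 1100 at 0 h. The neighbouring gene BANF1, which encodes barrier-to-autointegration factor, was chosen after its values were seen and stood at 104% and 106% of 0 h.

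**Figure D2:**
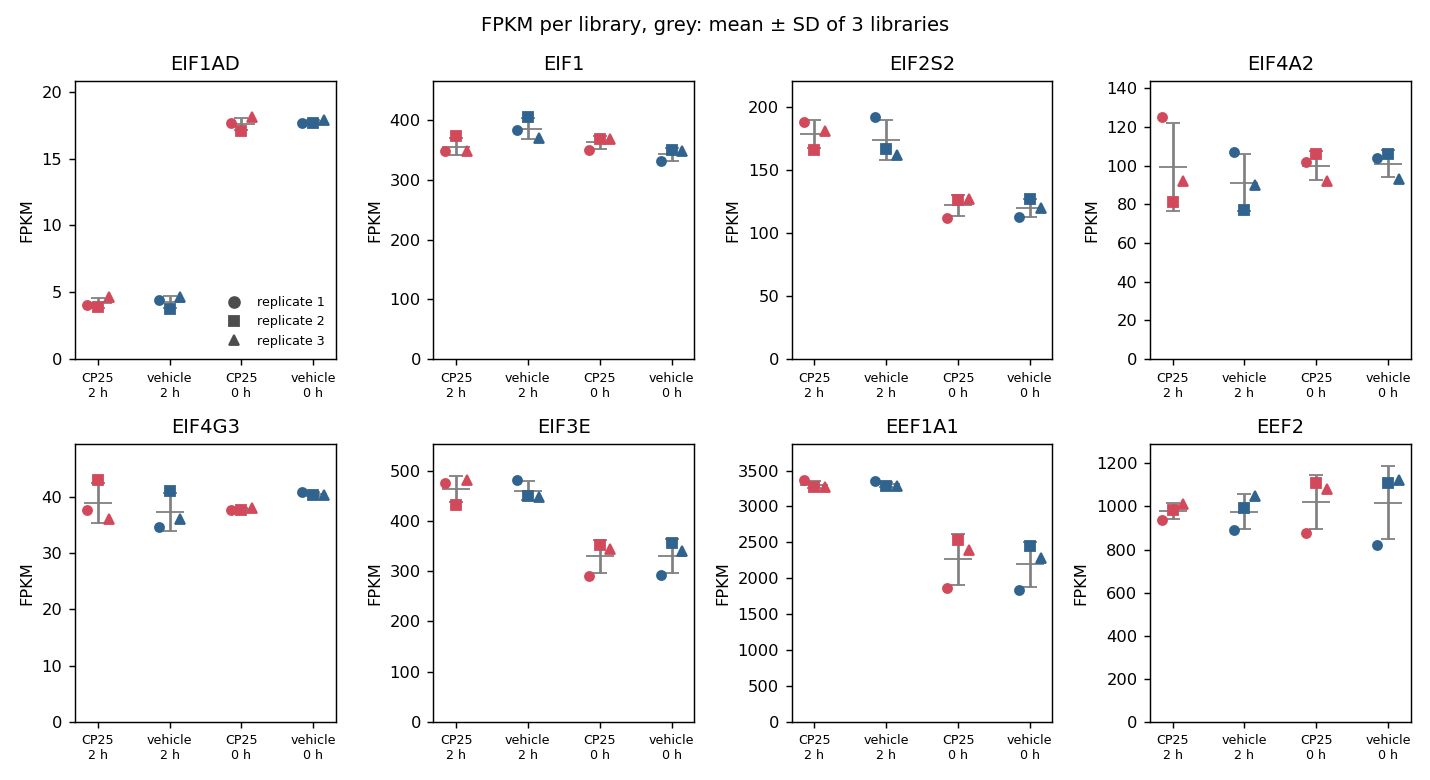
FPKM of 8 members in every library (vertical axes from 0), by group in the order CP25 2 h, vehicle 2 h, CP25 0 h and vehicle 0 h, with a marker per replicate number and the mean ± SD of 3 libraries in grey. EIF1AD lies between 3.76 and 4.65 FPKM at 2 h and between 17.1 and 18.1 FPKM at 0 h, EEF1A1 lies at 3272 FPKM or more at 2 h and at 2535 FPKM or less at 0 h, and EEF2 overlaps between the times.

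Where transcription starts bears on which of these mRNAs can carry a TOP motif, so the annotated starts were read from the RefSeq promoter table (GRCh38.p14). The table held 44 of the 53 members. A start was counted as pyrimidine-type where its first base was C and at least 4 pyrimidines followed, and this definition was chosen after the members' values were seen. It was met by 12 of the 44 members (27.3%), against 687 of 8933 tested genes in the table (7.69%) and 4.07% of all 35116 starts in it. The 12 were EEF1A1, EEF1B2, EEF2, EIF2A, EIF2D, EIF2S3, EIF3D, EIF3F, EIF3K, EIF3M, EIF4A2 and EIF4B. Sequences of 7 of them are shown because they span the range of ratios, followed by EEF1G, EIF1B and EIF1AD, which do not meet the definition. Each line holds 10 bases before the start and 20 from it, 5′ to 3′ on the transcribed strand, and capitals mark the start base with its unbroken run of pyrimidines where the definition is met, and the start base alone elsewhere.
EEF1A1 (chr6:73521013-73521042, minus strand): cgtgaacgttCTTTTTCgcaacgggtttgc
EEF1B2 (chr2:206159885-206159914, plus strand, 1 of its annotated starts): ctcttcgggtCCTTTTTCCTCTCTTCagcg
EIF3M (chr11:32583821-32583850, plus strand): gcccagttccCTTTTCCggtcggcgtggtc
EIF2S3 (chrX:24054946-24054975, plus strand): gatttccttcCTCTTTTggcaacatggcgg
EIF4B (chr12:53006446-53006475, plus strand): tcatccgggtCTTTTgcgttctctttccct
EEF2 (chr19:3985444-3985473, minus strand): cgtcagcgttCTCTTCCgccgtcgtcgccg
EIF4A2 (chr3:186783567-186783596, plus strand): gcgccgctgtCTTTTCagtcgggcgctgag
EEF1G (chr11:62573872-62573901, minus strand): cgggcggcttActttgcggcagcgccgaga
EIF1B (chr3:40309697-40309726, plus strand): cattttgtgcGagaagccgcagcgccgcct
EIF1AD (chr11:66002138-66002167, minus strand): cagcgccggaAgtacggttttcggagggat

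Members with a pyrimidine start had higher ratios, by value, than the others. Their median log2 ratio was 0.38 in CP25 and 0.35 in vehicle, against 0.11 and 0.16 for the 32 members in the table without such a start, or 0.10 and 0.15 for these without the read-through locus. More than 1.2-fold higher in both treatments were 10 of the 12 with a pyrimidine start, all but EEF2 and EIF4A2, and 8 of the 32 without, or 7 of 31 without the read-through locus. Among all tested genes, 103 of 687 with such a start (15.0%) and 616 of 8246 without (7.47%) were higher in both. The all-gene medians were -0.08 in CP25 and -0.09 in vehicle with a pyrimidine start and -0.17 and -0.19 without one. A list of 14 TOP mRNAs taken from general knowledge of the field (EEF1A1, EEF1B2, EEF1D, EEF1G, EEF2, EIF2A, EIF3A, EIF3E, EIF3F, EIF3G, EIF3H, EIF3K, EIF3L and EIF4B) had medians of 0.36 and 0.33, against 0.12 and 0.20 for the other 39 members. The promoter table held 8 of these genes, and 7 of them are among the 12 with a pyrimidine start, so the list is no separate evidence. EEF2, with a TOP-type start, stayed near level at 95.8% of 0 h in CP25 and 96.0% in vehicle.

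**Figure D3:**
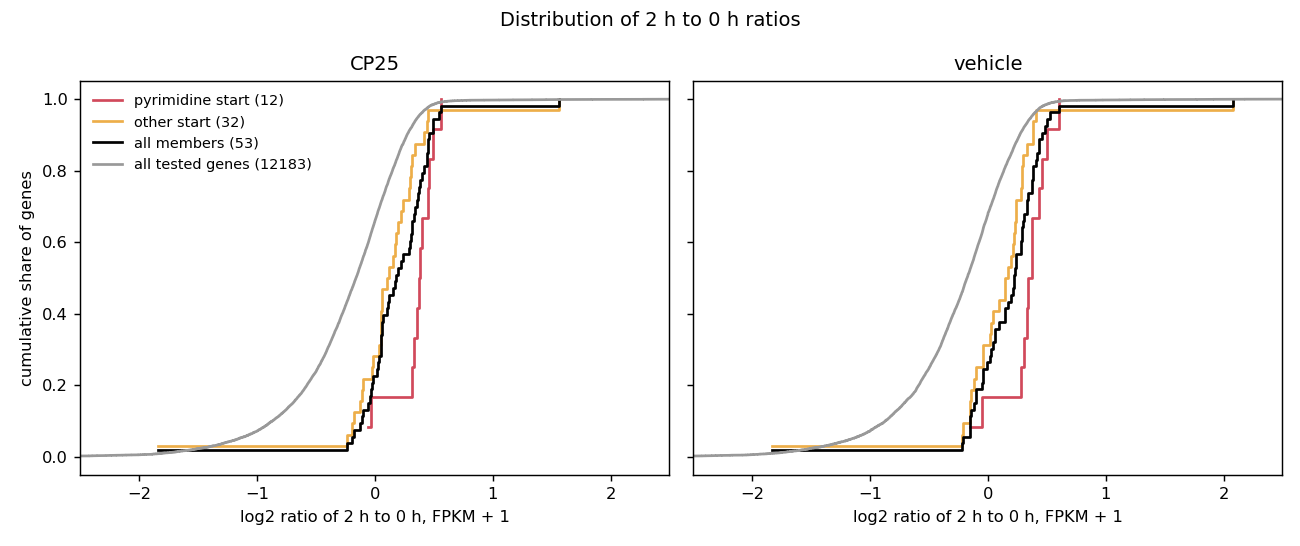
Cumulative share of genes (vertical axis) by log2 ratio of 2 h to 0 h (horizontal axis, FPKM + 1) in CP25 and in vehicle, for 12 members with a pyrimidine start, 32 members without, all 53 members and all tested genes. Above the lowest member, EIF1AD at -1.84 and -1.83, the members' curves run to the right of that of all genes through the middle of the plot, and the 12 have medians of 0.38 and 0.35.

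Among the elongation factors EEF1A1, EEF1B2 and EEF1G stood higher at 2 h, and EEF1D, EEF1A2 and EEF2 overlapped between the times. EEF1A1, which delivers aminoacyl-tRNA, had 3368, 3273 and 3272 FPKM in CP25 2 h and 3352, 3282 and 3289 FPKM in vehicle 2 h. At 0 h it had 1857, 2535 and 2397 FPKM in CP25 and 1842, 2451 and 2284 FPKM in vehicle. The times did not overlap, and both libraries numbered 1 at 0 h were the lowest. It stood at 146% of 0 h in CP25 and 151% in vehicle, and without the libraries numbered 1 at 0 h its log2 ratios were 0.42 and 0.48 instead of 0.56 and 0.60. EEF1B2, a nucleotide exchange subunit, stood at 140.4% and 142%, and EEF1G, the subunit that anchors the complex, at 123% and 122%. EEF1D, another exchange subunit, stood at 102% and 104%.

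EEF2, the translocase, had 939, 985 and 1012 FPKM in CP25 2 h and 889.7, 993 and 1047 FPKM in vehicle 2 h, against 877, 1109 and 1079.6 FPKM in CP25 0 h and 822, 1108 and 1123 FPKM in vehicle 0 h. Its libraries overlapped between the times, with log2 ratios of -0.05 in both treatments and of 0.27 and 0.30 once libraries were centred. Its kinase EEF2K stood at 104% and 97.0% of 0 h, and EEF1E1 at 103% in both treatments. EEF1A2, the paralog of EEF1A1 typical of muscle and neurons, made up 1.69% ± 0.54 of the EEF1A sum in CP25 2 h and 1.74% ± 0.47 in vehicle 2 h, against 2.21% ± 0.12 in CP25 0 h and 2.2% ± 0.10 in vehicle 0 h (SD, n = 3). EEF1A1 and EEF1A2 are close paralogs, so the split of reads between them is uncertain. Of the 8 elongation members, 3 stood more than 1.2-fold higher in each treatment and none lower.

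All 3 subunits of eIF2, the carrier of the initiator tRNA, stood higher at 2 h. EIF2S2, the beta subunit, had 188, 166 and 181 FPKM in CP25 2 h and 192, 167 and 162 FPKM in vehicle 2 h, against 112, 126 and 127 FPKM in CP25 0 h and 113, 127 and 119.8 FPKM in vehicle 0 h. Every library at 2 h was above every library at 0 h, and the means were 147% and 145% of 0 h. EIF2S3, the gamma subunit that binds GTP and tRNA, stood at 132% and 135%, and EIF2S1, the alpha subunit that stress kinases phosphorylate, at 127% and 134%. In all 3 the times were without overlap in both treatments.

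The guanine nucleotide exchange factor of eIF2, eIF2B, was less uniform. EIF2B3 stood at 136% of 0 h in CP25 and 131% in vehicle, EIF2B1 at 123% and 118%, EIF2B2 at 105% and 102%, and EIF2B5 at 105% and 101%. EIF2B4 was the lowest, with 29.6, 32.3 and 32.5 FPKM in CP25 2 h and 31.2, 33.3 and 31.2 FPKM in vehicle 2 h, against 32.6, 34.3 and 40.7 FPKM in CP25 0 h and 34.3, 35.7 and 36.7 FPKM in vehicle 0 h. Its log2 ratios were -0.18 and -0.15, and 0.15 and 0.19 once libraries were centred. Of the 5 subunits, 2 were more than 1.2-fold higher in CP25 and 1 in vehicle. EIF2B1 overlaps DDX55, whose level was 45.7% of its own, and EIF2S1, EIF2D, EIF5B and EIF4E3 overlap genes at 10.4% to 19.7% of theirs. The counting is not stated to use strand, so part of their reads cannot be assigned with certainty.

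The factors that work with or beside eIF2 ranged widely. EIF5B, the GTPase of subunit joining, stood at 138% and 132% of 0 h, EIF2D, which can deliver tRNA without eIF2, at 138% and 130.4%, and EIF2A, an alternative tRNA-binding factor, at 130.2% and 122%. EIF1AX, the canonical eIF1A, stood at 111% and 107%. EIF6, which keeps the large subunit from joining early, was at 91.5% and 93.1%, and EIF5, the GTPase activator of eIF2, at 87.8% and 86.4%. EIF5 and EIF6 overlapped between the times in both treatments. EIF5 had log2 ratios of -0.19 and -0.21, which became 0.14 and 0.13 with centred libraries, and those of EIF6, -0.12 and -0.10, became 0.20 and 0.25.

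EIF1 and EIF1B encode closely related forms of eIF1, the factor that guards start codon choice. EIF1B had 53.4, 52.1 and 50.4 FPKM in CP25 2 h and 54.9, 59.9 and 52.0 FPKM in vehicle 2 h, against 69.2, 57.1 and 58.3 FPKM in CP25 0 h and 68.1, 60.8 and 65.1 FPKM in vehicle 0 h. After EIF1AD it had the lowest ratios, at 84.4% and 85.9% of 0 h, or -0.23 and -0.22 on the log2 scale and 0.09 and 0.13 with centred libraries. Its share of the EIF1 plus EIF1B sum was 12.7% ± 0.53 in CP25 2 h and 12.6% ± 0.28 in vehicle 2 h, against 14.5% ± 1.7 in CP25 0 h and 15.9% ± 1.16 in vehicle 0 h (SD, n = 3), without overlap between the times.

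The subunits of eIF3, the scaffold of the initiation complex, were all above the all-gene median. Of 12 measured subunits, 8 were more than 1.2-fold higher at 2 h in CP25 and 9 in vehicle, with medians of 0.32 and 0.33. EIF3E led, with 476, 433 and 482 FPKM in CP25 2 h and 482, 451 and 448 FPKM in vehicle 2 h, against 291, 352 and 345 FPKM in CP25 0 h and 292, 356 and 341 FPKM in vehicle 0 h. The times did not overlap, and EIF3E stood at 141% and 139.6% of 0 h. EIF3M followed at 136% and 137%, and EIF3H at 136% and 135%.

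The 4 lowest subunits were EIF3A, EIF3B, EIF3G and EIF3I, which belong to the core that is also found in budding yeast. They ranged from 102% to 114% of 0 h in CP25 and from 93.8% to 121% in vehicle, whereas the other 8 subunits ranged from 124% to 141% and from 123% to 139.6%. EIF3A, the largest subunit and the lowest of the 12, was at 102% and 93.8%. This grouping was noticed in the values. The remaining core subunit, EIF3C, was outside the level threshold, and EIF3J, which also has a budding yeast counterpart, stood at 125% and 126%. By level at 2 h, EIF3J was the lowest, at 90.4 FPKM in CP25 and 89.2 FPKM in vehicle, and EIF3E the highest, at 464 and 460.3 FPKM. At 0 h EIF3J was again the lowest, at 72.3 and 70.5 FPKM. The highest was then EIF3I, at 358 and 350.5 FPKM, above EIF3E at 329.5 and 329.8 FPKM.

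**Figure D4:**
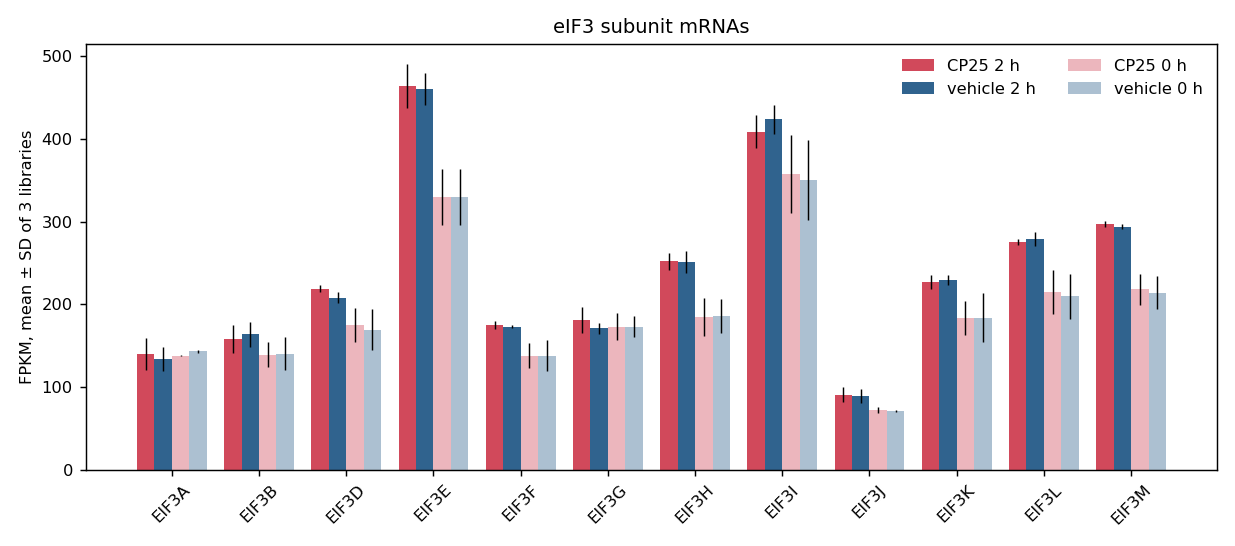
Mean FPKM with SD over 3 libraries (vertical axis) of the 12 eIF3 subunit mRNAs in CP25 2 h, vehicle 2 h, CP25 0 h and vehicle 0 h. The bars for 2 h stand clear of those for 0 h in EIF3E, EIF3H and EIF3M, whereas those of EIF3A and EIF3G are of like height.

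In the cap complex EIF4B, EIF4E3 and EIF4E2 were more than 1.2-fold higher at 2 h in both treatments. EIF4B, which stimulates the helicase eIF4A, was at 130.1% of 0 h in CP25 and 129% in vehicle, and EIF4A1, the most expressed of this group, at 117% in both. EIF4H, a relative of EIF4B, stood at 109% and 114%. EIF4A2, the second form of the helicase, had 125, 81.4 and 92.0 FPKM in CP25 2 h and 107, 77.2 and 89.9 FPKM in vehicle 2 h, against 102, 106 and 91.8 FPKM in CP25 0 h and 104, 106 and 92.9 FPKM in vehicle 0 h. Its libraries at 2 h spread widely and overlapped those at 0 h. Its share of the EIF4A sum was 7.13% ± 1.46 in CP25 2 h and 6.74% ± 1.04 in vehicle 2 h, against 8.45% ± 1.48 in CP25 0 h and 8.65% ± 1.36 in vehicle 0 h (SD, n = 3). EIF4E3, a cap-binding relative at 7.52 FPKM over the 12 libraries, stood at 138% and 127% of 0 h. None of the 10 members of the group was more than 1.2-fold lower.

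Paralogs of the cap complex differed from each other. EIF4E, the cap-binding factor of initiation, stood at 99.0% and 96.9% of 0 h, and EIF4E2, a cap-binding relative known as a repressor, at 124% and 123%. The share of EIF4E2 in their sum was 68.1% ± 0.26 in CP25 2 h and 67.6% ± 0.90 in vehicle 2 h, against 63.0% ± 1.86 in CP25 0 h and 62.2% ± 0.74 in vehicle 0 h (SD, n = 3), with every library at 2 h above every library at 0 h. EIF4G1, the main scaffold, stood at 94.1% and 90.8%, while EIF4G2, which lacks the eIF4E-binding region, stood at 113% and 116%. EIF4G2 made up 76.0% ± 0.98 of their sum in CP25 2 h and 76.5% ± 0.76 in vehicle 2 h, against 72.4% ± 0.19 in CP25 0 h and 71.7% ± 0.70 in vehicle 0 h, again without overlap. The scaffold EIF4G3 stood at 103% and 92.1%. Shares within 1 library do not depend on how the tables were scaled.

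The inhibitors and eIF5A showed small ratios. EIF4EBP2 stood at 117% and 111% of 0 h and EIF4EBP1 at 98.5% and 104%, and neither passed 1.2-fold. EIF5A, which helps the ribosome past difficult peptide bonds, stood at 107% in CP25 and 116% in vehicle, its copy EIF5AL1 at 105% and 117%, and its paralog EIF5A2 at 90.9% and 88.0%. EIF5A2 made up 0.43% ± 0.04 of the sum of EIF5A and EIF5A2 in CP25 2 h and 0.42% ± 0.05 in vehicle 2 h, against 0.51% ± 0.09 in CP25 0 h and 0.56% ± 0.10 in vehicle 0 h (SD, n = 3).

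The read-through locus EEF1E1-MUTED had the largest ratio and the least certain one. It was listed at 5.74, 1.85 and 1.96 FPKM in CP25 2 h and at 7.73, 4.07 and 5.76 FPKM in vehicle 2 h, against 0.0057, 0 and 1.2 FPKM in CP25 0 h and 0.333, 1.99 and 0 FPKM in vehicle 0 h. Every library at 2 h was above every library at 0 h of its own treatment. The locus overlaps EEF1E1, at 78.1 FPKM over the 12 libraries, and BLOC1S5, at 10.6 FPKM, so the assignment of reads to it is uncertain, and no fold is given because a library in each treatment at 0 h is listed at 0.

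Other genes of the pathway, which regulate or assist these factors, were read in the same way. Of 41 such genes in 4 lists, those of the eIF2 kinases and phosphatase subunits had median log2 ratios of -0.06 in CP25 and -0.05 in vehicle, and mTORC1 and MNK signalling -0.31 and -0.23. Poly(A)-binding and release factors had 0.25 and 0.29, and noncanonical initiation and eIF5A modification 0.03 and 0.04. More than 1.2-fold lower in both treatments were 3 of 7, 8 of 17, 1 of 9 and 3 of 8 genes of these lists in the same order, where 37.4% of all genes were, so the first, second and last of these shares lie near that of all genes. More than 1.2-fold higher in both were 1, 2, 4 and 1 genes, where 7.96% of all genes were.

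The regulatory subunits that direct the phosphatase to eIF2, PPP1R15A and PPP1R15B, had low ratios, and the catalytic subunit PPP1CA stood near level at 95.8% of 0 h in CP25 and 96.3% in vehicle. PPP1R15A averaged 2.08 ± 0.18 FPKM in CP25 2 h and 2.08 ± 0.62 FPKM in vehicle 2 h, against 8.53 ± 0.19 FPKM in CP25 0 h and 8.90 ± 0.51 FPKM in vehicle 0 h (SD, n = 3), which is 24.3% and 23.4% of 0 h. PPP1R15B stood at 30.7% and 31.8%, and EIF2AK3, the eIF2 kinase of the endoplasmic reticulum, at 43.7% and 44.2%. Higher were EIF2AK4, the kinase that senses uncharged tRNA, at 131% and 127%, and EIF2AK1 at 119% and 120.1%. In the mTORC1 list DDIT4, an inhibitor of the pathway, stood at 20.7% and 31.1% with a wide spread, SESN2 at 47.1% and 56.3%, PDCD4, an inhibitor of eIF4A, at 126% and 128%, and RPS6 at 124% and 125%.

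PABPC1, the main cytoplasmic poly(A)-binding protein, stood at 139% of 0 h in CP25 and 129% in vehicle, and its inhibitor PAIP2 at 130.4% and 137%. The release factor paralog GSPT2 was at 51.0% and 49.0% of 0 h, and PABPC4, a further poly(A)-binding protein, at 116% and 113%. DENR stood at 126% in both and its partner MCTS1 at 130.3% and 121%. DOHH, which completes the modification of eIF5A, had log2 ratios of -0.92 and -0.81, and EIF4ENIF1, the eIF4E transporter, stood at 55.5% and 54.0% of 0 h.

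The second question is whether CP25 altered the level of these mRNAs, or their change over 2 h. No member passed limma's test on log2(FPKM + 1) at an adjusted p of 0.05, at 2 h (0 of 53, where 0.00851% of all genes were called), at 0 h (0 of 52, where 0.0% were) or in the difference of the effects, 2 h minus 0 h (0 of 53, where 0.0% were). At an unadjusted limma p under 0.05 there were again 0 members in each comparison, against 0.741%, 0.712% and 1.26% of all genes. These shares lie below the share of 0.05 that tests without any effect would give on average. This fit was therefore conservative, and its 0 members do not show that CP25 had no effect. With the replicate number as a block, limma still called 0 members, and an unadjusted p under 0.05 was reached by 2 members at 2 h, 3 at 0 h and 3 in the difference, where 6.93%, 6.93% and 10.5% of all genes reached it. The authors' deposited table of p-values, adjusted here over the same genes, called 0 members at either time, with the smallest unadjusted p of 0.295 for EIF1 at 2 h and 0.362 for EIF4G3 at 0 h. EEF1E1-MUTED was below the level filter at 0 h.

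Median log2 fold changes of CP25 over vehicle were 0.01 for the members and 0.01 for all genes at 2 h, and 0.01 and -0.0036 at 0 h, while the median difference of effects was 0.01 for both. The 95% limma intervals, which are not adjusted for the number of genes, excluded a 1.5-fold change in either direction for 51 of 53 members at 2 h, 52 of 52 at 0 h and 50 of 53 for the difference. They excluded a 1.2-fold change for 35, 30 and 3 members. These counts are from the fit without the replicate block and depend on that choice. With the block many intervals were narrower, such as that of EEF1G for the difference, at -0.13 to 0.15 instead of -0.38 to 0.39. Some were slightly wider, such as that of EEF1A1 at 2 h, at -0.1323 to 0.1294 instead of -0.1275 to 0.1246. The widest without the block belonged to EEF1E1-MUTED and EEF1A2, where EEF1A2 had -0.06 at 2 h with an interval from -0.73 to 0.61. Fold changes on this scale understate those of weakly expressed genes such as EEF1E1-MUTED.

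**Figure D5:**
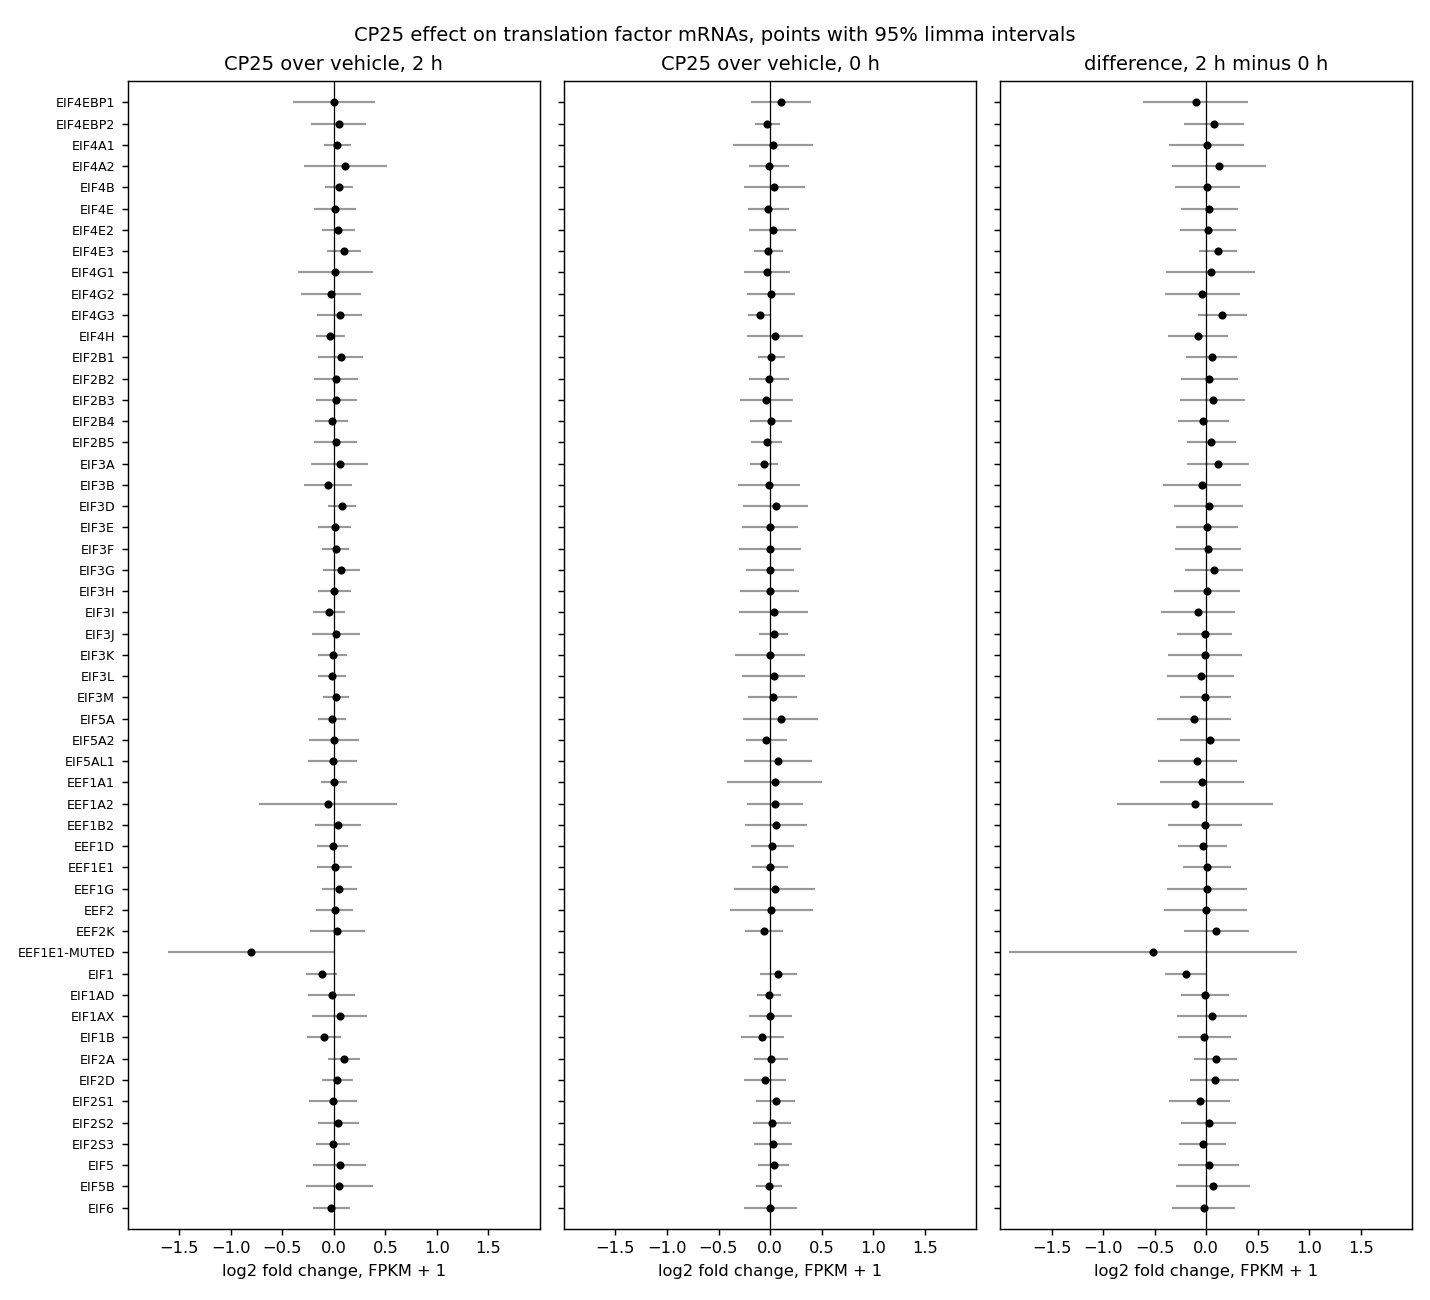
Log2 fold change of CP25 over vehicle (horizontal axes, FPKM + 1) with its 95% limma interval for each member at 2 h, at 0 h, and as the difference 2 h minus 0 h. The points lie close to 0, with EEF1E1-MUTED at -0.80 at 2 h the farthest away, and every interval drawn, from the fit without the replicate block, includes 0.

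EIF1 had the difference of effects with the smallest p. Its libraries held 348, 373 and 349 FPKM in CP25 2 h, against 383, 405 and 370.4 FPKM in vehicle 2 h. At 0 h they held 351, 369 and 369 FPKM in CP25, against 331, 351 and 348 FPKM in vehicle. The libraries of the treatments overlapped at both times, although CP25 was lower in each of the 3 same-numbered pairs at 2 h. Its log2 change was -0.12 at 2 h (95% limma interval -0.27 to 0.03) and 0.08 at 0 h (-0.10 to 0.26). The difference was -0.20 (-0.40 to 0.01), with a limma adjusted p of 1.0, and EIF1 stood at 98.2% of 0 h in CP25 and 113% in vehicle. With the replicate number as a block, the interval of EIF1 was -0.21 to -0.02 at 2 h and -0.29 to -0.10 for the difference. At 0 h it was 0.015 to 0.146 with the block. These intervals exclude 0, with limma adjusted p of 0.716, 0.271 and 0.707 in this order.

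EIF4G3 had the smallest p at 0 h, unadjusted and short of the threshold. It had 37.7, 37.7 and 38.0 FPKM in CP25 0 h, against 40.9, 40.3 and 40.4 FPKM in vehicle 0 h, without overlap. The log2 change was -0.10 (95% limma interval -0.21 to 0.01), and at 2 h its libraries held 37.6, 43.0 and 36.1 FPKM in CP25 and 34.7, 41.1 and 36.1 FPKM in vehicle. With the block the interval of EIF4G3 at 0 h was -0.17 to -0.02 and excluded 0 (limma adjusted p = 0.707). Its difference of effects was 0.16 (-0.08 to 0.39), and 0.05 to 0.26 with the block (limma adjusted p = 0.343). EIF3A was the other member without overlap at 0 h, with 137, 138 and 138 FPKM in CP25, against 142, 143 and 145 FPKM in vehicle, a log2 change of -0.06 (95% limma interval -0.19 to 0.08). Its difference of effects with the block had an interval of 0.01 to 0.21, which excludes 0 (limma adjusted p = 0.415). Among all genes, 2.89% were lower in CP25 without overlap at 0 h and 1.21% were higher, beside 2 and 0 members.

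At 2 h, EIF2A and EIF3D were the members higher in CP25 without overlap, beside 2.46% of all genes, and none was lower, beside 1.76%. EIF2A had 43.8, 45.3 and 43.9 FPKM in CP25 2 h, against 42.3, 43.1 and 38.8 FPKM in vehicle 2 h, a log2 change of 0.10 (95% limma interval -0.06 to 0.25). EIF3D had 223, 214 and 219 FPKM in CP25 2 h, against 212, 211 and 200.1 FPKM in vehicle 2 h, a log2 change of 0.08 (-0.06 to 0.21). Both intervals include 0. EIF4E3 had 0.10 at 2 h (-0.07 to 0.27) and a difference of effects of 0.11 (-0.07 to 0.30), and the difference of effects of EIF2A was 0.09 (-0.12 to 0.30).

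Of the other members with the smallest p, EEF1E1-MUTED had a log2 change of -0.80 at 2 h (95% limma interval -1.60 to 0.01), with overlapping libraries, and a difference of -0.52 (-1.91 to 0.88). With the block its interval at 2 h was -1.15 to -0.45 and excluded 0, with a limma adjusted p of 0.716, and its levels are uncertain as described above. EIF1B had -0.09 at 2 h (-0.26 to 0.07) and -0.08 at 0 h (-0.28 to 0.13). At 0 h EIF4EBP1 had 0.11 (-0.19 to 0.40) and EIF2S1 0.06 (-0.13 to 0.25), and EIF5A had a difference of effects of -0.12 (-0.47 to 0.24). With the block the interval of EIF5A at 0 h was 0.01 to 0.19 and excluded 0, with a limma adjusted p of 0.707. EIF1AD, with the lowest ratio of 2 h to 0 h, differed little between the treatments, as its values above show. Without the block, all members named for CP25 had a limma adjusted p of 1.0 in each comparison, and among the 41 other pathway genes 0 were called higher and 0 lower in any comparison.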

How the data were processed

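Poly(A) RNA of 12 HEK293T libraries was analysed from the values the authors deposited. The authors' deposited expression values are FPKM, in 1 table for each time, with 1 column per library. The authors also deposited, for each time, a p-value of CP25 against vehicle per gene. The build was hg19 and the tools named were Bowtie2 2.2.3, Trimmomatic 0.36 and CASAVA 1.8.2, per the submitters' processing notes. Which program and annotation gave the FPKM values is not given in the sources used here, and no read counts were used.

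From these, log2(FPKM + 1) was computed, and a gene entered a fit where its mean over the fitted libraries reached 1 FPKM. Tests used limma 3.58.1 in R 4.3.3 (moderated variances with a trend, Benjamini-Hochberg adjustment over all tested genes at 0.05). The percent of 0 h is the ratio of group means, and the log2 ratio of 2 h to 0 h is the difference of mean log2 values. Members, role groups, pathway lists and alternatives were chosen with earlier results of these data known. Named members were the extremes and the most expressed of each role, the 8 highest and 8 lowest ratios, the 3 smallest p in each direction per CP25 comparison, those nearest the level threshold and fixed paralog pairs. Sequences are from RefSeq (GRCh38.p14), and feature lengths from GENCODE 29. The fits were tested on simulated data with independent noise in each library. The changed genes were drawn from those with a mean of at least 5 FPKM. In each simulation 100 genes were changed 1.5-fold and 100 others 2-fold at once, which eases the Benjamini-Hochberg cutoff. The recovered shares hold for that setting, not for a change in few genes, for weaker members or for libraries with shared deviations. Of 100 genes changed 1.5-fold, 72% were recovered at 2 h among 12114 genes, 73% at 0 h among 12130 and 40% for the difference among 12146. At 2 h, deviations of CP25 and vehicle libraries correlated across genes at -0.443 to 0.114 between different numbers, whose highest value also passed 0.1. Between same numbers they correlated at 0.354, 0.447 and 0.15, all above 0.1, so the numbers were taken to pair the libraries there. The labels give the number alone, so this pairing rests on the values.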

Additional observations from a re-analysis of the deposited data

How the results depend on the processing

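No member was called in any CP25 comparison under any alternative run (pseudocount of 0.1, a minimum mean of 5 FPKM or none, centred or quantile-normalised libraries, limma without its trend, the replicate block, the authors' p-values and single libraries left out). With the replicate number as a block, limma called 0 members, and the median change was 0.0132 at 2 h, 0.0075 at 0 h and 0.0075 for the difference. Unadjusted p under 0.05 was then reached by 2 of 53 members at 2 h, 3 of 52 at 0 h and 3 of 53 for the difference, beside 6.93%, 6.93% and 10.5% of all genes. At 0 h libraries of different numbers gave correlations of -0.222 to 0.134. The same-number correlations were 0.261, -0.011 and 0.118, not all above 0.1, so the numbers were not taken to pair the libraries there. This does not show that those libraries are unpaired. The libraries numbered 1 held the lowest member sums of their groups at 0 h in both treatments, as given above. Without single libraries the medians ranged from -0.0116 to 0.0271 at 2 h, from -0.0506 to 0.0779 at 0 h and from -0.076 to 0.0738 for the difference. For the ratios of 2 h to 0 h, centred libraries gave medians of 0.5084 in CP25 and 0.5646 in vehicle and 46 and 43 higher members, through the shift of all genes (40.9% and 40.5% of all genes were then higher). Without EEF1E1-MUTED the higher members were 45 and 42. A 1.5-fold limit left 1 and 2 higher members, beside 0.772% of all genes in each treatment. Without single libraries the median ranged from 0.1002 to 0.2293 in CP25 and from 0.1298 to 0.2718 in vehicle, higher members from 17 to 24 and from 16 to 27, and lower members from 1 to 2 and from 1 to 3, with 3 when vehicle replicate 2 at 2 h was left out. The lowest medians, 0.1002 and 0.1298, came without replicate 1 at 0 h of the treatment concerned. Leaving out both of these together was chosen after seeing the data and gave the same values. The cause was not tested.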

Other observations

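At 2 h some members set the libraries numbered 2 apart in both treatments. EEF1A2 had 36.1 FPKM in CP25 replicate 2 against 73.0 and 62.0 FPKM in replicates 1 and 3, and 41.7 FPKM in vehicle replicate 2 against 75.1 and 59.5 FPKM. EIF4EBP1 had 66.0 FPKM in CP25 replicate 2 against 94.4 and 102 FPKM, and 73.4 FPKM in vehicle replicate 2 against 91.2 and 94.7 FPKM. The reverse was seen in EIF4G1, with 226 FPKM in CP25 replicate 2 against 159.6 and 170.1 FPKM, and 215 FPKM in vehicle replicate 2 against 159 and 174 FPKM. EIF3A had 162 FPKM in CP25 replicate 2 against 132 and 125 FPKM, and 151 FPKM in vehicle replicate 2 against 129 and 123 FPKM. These members were chosen after their values were seen, and what the libraries numbered 2 share was not tested.

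Sequence features of the transcripts followed the ratios weakly, and the level somewhat more. Across 52 members, the mean log2 ratio of 2 h to 0 h had a Pearson correlation of 0.37 with the level, which comes from the same libraries. With GC content it was -0.15 and with transcript length -0.04. Without EIF1AD the values were 0.325, -0.21 and -0.10 in the same order. Over 10845 tested genes the values were 0.40, -0.28 and -0.13. The AU-rich pentamer ATTTA occurred in the annotated 3′ untranslated region of 67.3% of the members and of 71.1% of all these genes.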
